A study of Mus musculus with 6 samples.

Results

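Histones are the proteins around which nuclear DNA is wound. The 9 mouse histone genes described here are Hist1h1c, Hist2h2be, Hist1h2bc, H1f0, H2afz, H2afy, H2afv, H3f3a and H3f3b, found by gene symbol among the 54532 genes of the deposited table. They were selected on their FPKM levels in these same libraries, as histone genes whose RNA is seen after poly-A selection, so their levels are given as a description and their fold changes are no independent evidence. Messenger RNA was sequenced from hearts of mice carrying floxed Ythdc1 alleles (genotype Ythdc1flox/flox, here flox control, 3 libraries) and of mice with a conditional knockout of the same gene (Ythdc1-CKO, here CKO, 3 libraries). All mice had normal chow for 15 days, and the samples are labelled as independent biological replicates; age and the driver of the deletion are not in the labels. Ythdc1 encodes a nuclear reader of N6-methyladenosine in RNA, and the comparison asks which heart transcripts differ when it is deleted.

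Core histones H2A, H2B, H3 and H4 form the nucleosome, and linker histone H1 sits where DNA enters and leaves it. Most histone genes lie in clusters and are copied into RNA mainly during S phase; their messages lack a poly-A tail and end just past a short stem-loop bound by the stem-loop binding protein SLBP. Replication-independent histone genes make ordinary polyadenylated messages in resting cells such as cardiomyocytes, and some clustered genes also make a longer, polyadenylated form. Selection with poly-T beads, as used here, keeps the polyadenylated forms.

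Of the 67 protein-coding genes with a symbol beginning Hist1h, Hist2h, Hist3h or Hist4h, only 7 reached a mean of 1 FPKM (fragments scaled to gene length and library size) over the 6 libraries. A further 47 were detected below that level and 13 had no read. The 7 were Hist1h1c, Hist1h2bc, Hist1h4h, Hist1h4i, Hist2h2be, Hist3h2a and Hist1h2bg, of which Hist1h1c, Hist1h2bc and Hist2h2be are members. Their annotated 3′ ends are described because poly-T selection keeps messages with a poly-A tail, although an annotated end does not itself show a tail. The stem-loop was searched on the transcript strand of GENCODE M21 (GRCm38) past the stop codon, by the conserved letters of the histone stem-loop. In the letters that follow, capitals mark that stem-loop.
Hist1h1c, chr13:23739508-23739532, plus strand: aaaaGGCTCTTTTCAGAGCCaccac
Hist1h4h, chr13:23531454-23531478, plus strand: caaaGGCCCTTTTCAGGGCCgccca
Hist1h2bg, chr13:23571839-23571863, plus strand: caaaGGCTCTTTTCAGAGCCaccca

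The last 30 bases of the annotated transcripts of both members that changed, of the other linker histone member and of H2afj, a variant described further on, follow with the poly-A signal AATAAA in capitals.
Hist1h1c, chr13:23740338-23740367, plus strand: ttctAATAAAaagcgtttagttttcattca
Hist2h2be, chr3:96223709-96223738, plus strand: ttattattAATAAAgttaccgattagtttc
H1f0, chr15:79030475-79030504, plus strand: aactttaaAATAAAactggaaaggaaaaaa
H2afj, chr6:136810045-136810074, plus strand: aggacaAATAAAgaatatattacaaatctg

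The 3 clustered members have different annotated ends. The Hist1h1c transcript of 1560 bases carries the stem-loop 24 bases past the stop codon, runs on for 840 bases and ends with AATAAA 26 bases from its last base. The RefSeq model of the gene (H1f2) stops 4 bases past the stem-loop. The Hist2h2be transcript of 2620 bases holds no match to the stem-loop pattern and has AATAAA 22 bases from its end. The Hist1h2bc transcript is spliced: its first exon ends 9 bases past the stop codon, and after an intron of 7554 bases a second exon of 733 bases follows, with no stem-loop match and neither AATAAA nor ATTAAA in its last 50 bases. Over the clustered genes, 5 of the 7 that averaged 1 FPKM or more had such a hexamer in the last 50 bases of an annotated transcript, against 12 of the 60 genes below that level (20%). All annotated models of 15 of those 60 end within 2 bases of the stop codon, where no such hexamer past the stop could be found; of the other 45, 12 had one. These counts describe the annotation, and the split uses the levels that the members were selected on. A model running at least 100 bases past the stem-loop was annotated for 4 of the 7 and 17 of the 60. FPKM divides by the length of the whole gene model, and reads of the long and the short form of a gene cannot be separated in these values.

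**Figure D1:**
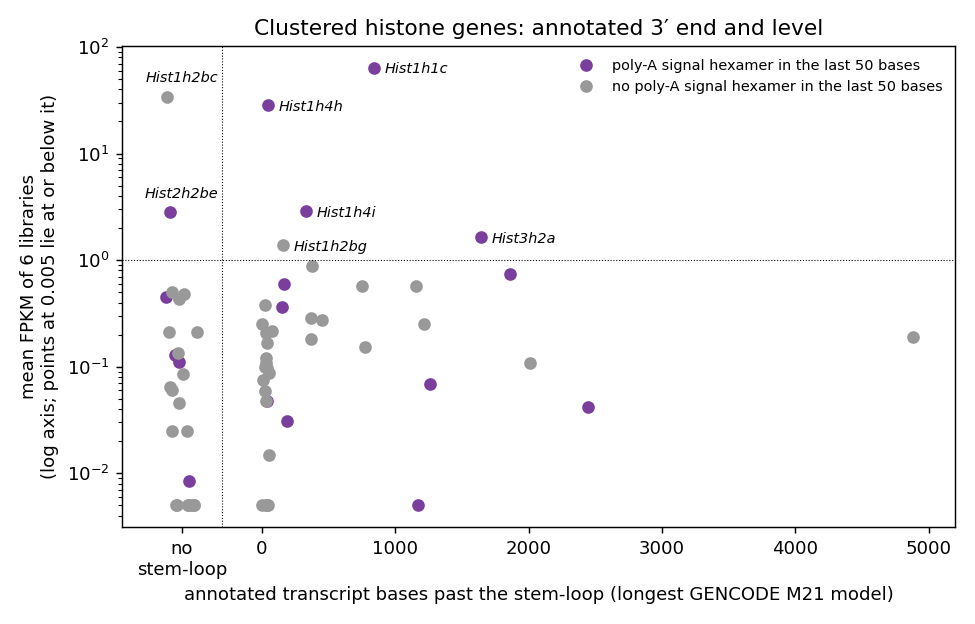
Mean FPKM over the 6 libraries (log axis) of 67 clustered histone genes against the bases that the longest annotated transcript runs past the stem-loop, with genes that lack a stem-loop match at the left. Each point is 1 gene, purple where a poly-A signal hexamer lies in the last 50 bases; points drawn at 0.005 lie at or below it. The 7 named genes lie above the dotted line at 1 FPKM.

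The libraries held 17434296 to 19360428 reads on genes, worked out from FPKM and gene length, and the members 55 to 4627 reads each. Ythdc1 measured 4.02 ± 0.344 FPKM in flox controls and 2.44 ± 0.119 FPKM in CKO (SD, n = 3 each), so the labels and the targeted gene go the same way; which exons the deletion removes is not in the labels. CKO 3 alone held many Xist reads (4037, against 0 to 5 elsewhere) and few reads of the Y-linked gene Ddx3y (33, against 1004 to 1495). CKO 1 had the highest summed level of 10 macrophage markers, 897 FPKM against 126 to 304 FPKM in the other 5 libraries. Reads of 11 RNAs without a poly-A tail, such as Rn7sk, came to 0.155 to 3.30 FPKM in all, and 8 of the 11 had no read in any library.

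CKO hearts had more Hist1h1c and less Hist2h2be RNA, and the other 7 members did not pass the test. limma was run on log2(FPKM + 1) for the 12144 genes that averaged 1 FPKM or more, and 11.2% of them were called at an adjusted p under 0.05, 5.69% higher and 5.49% lower. All 9 members were tested; 1 was called higher and 1 lower. The median log2 fold change (CKO minus flox control) was -0.00216 over the members and 0.01 over all genes tested. Groups that do not overlap were found in 2 of the 9 members and in 34.3% of all genes tested.

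**Figure D2:**
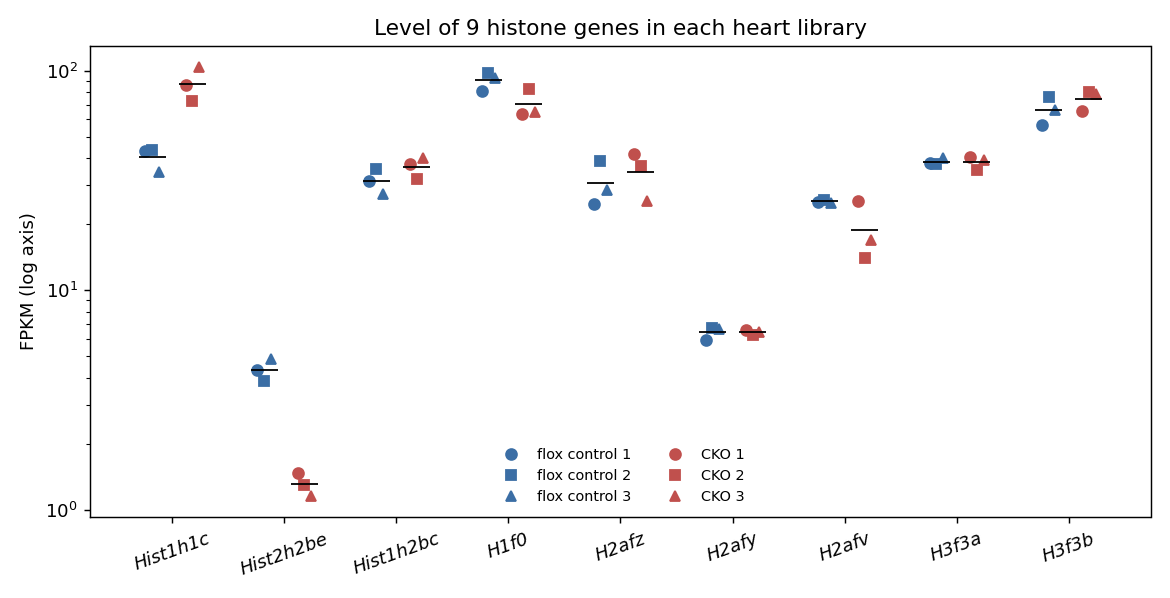
FPKM (log axis) of the 9 members in each library, flox control in blue and CKO in red, with a marker shape per replicate number and a black line at each group mean. Hist1h1c is higher and Hist2h2be lower in all 3 CKO libraries than in any flox control; the other 7 genes overlap between groups.

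The linker histone family had the highest summed level per length in every library, and its 2 members had fold changes of opposite sign, of which that of Hist1h1c passed the test. Hist1h1c (ENSMUSG00000036181, GRCm38 chromosome 13, 23738808 to 23740367, plus strand) encodes the linker histone H1.2. It measured 42.9, 43.7 and 34.5 FPKM across flox controls 1 to 3, against 85.7, 72.5 and 104 FPKM across CKO 1 to 3. The lowest CKO library lay well above the highest control. Hist1h1c rose 2.16-fold, from 40.4 ± 5.07 to 87.3 ± 15.6 FPKM (SD, n = 3 each; log2 fold change 1.09, SE 0.16, limma adjusted p = 0.0124). The call was lost without flox control 1 (limma adjusted p = 0.0519, log2 fold change 1.13), and over all alternatives the adjusted p lay between 0.0021 and 0.0519. In bulk tissue, a change in the number of cells of a type and a change in RNA per cell cannot be told apart.

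H1f0 (ENSMUSG00000096210, chromosome 15, 79028450 to 79030504, plus strand) encodes H1.0, the replication-independent linker histone typical of resting, differentiated cells. Its levels were 81.0, 97.9 and 92.2 FPKM across the controls, against 63.5, 82.5 and 64.5 FPKM across the CKO hearts. CKO 2 lay above flox control 1, and the other CKO libraries lay below all controls. The log2 fold change was -0.37 (SE 0.14) and did not pass (limma adjusted p = 0.152). An antisense gene overlapping H1f0, Gm49544, held 1 to 10 reads per library against 2340 to 3775 for H1f0.

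Within the summed FPKM of 11 linker histone genes, Hist1h1c made up 33.2%, 29.7% and 26.1% in the controls, in order of replicate number, against 55.0%, 45.5% and 60.5% in the CKO hearts. H1f0 made up 62.7%, 66.6% and 69.7% in controls and 40.8%, 51.8% and 37.7% in CKO. The 2 members together gave 95.8% to 98.3% of the sum in every library, so these shares mirror each other. H1f0 was the leading linker histone gene in every control, while Hist1h1c led in CKO 1 and CKO 3. The summed level was 129 to 147 FPKM across the controls, against 156 to 171 FPKM across the CKO hearts, without overlap. The Hist1h1c share did not overlap between groups (exact permutation p = 0.1, two-sided; no smaller p is possible with 3 libraries a group). Of the other linker histone genes, H1fx and Hils1 were tested, and neither passed. H1fx measured 2.30 ± 0.458 and 2.58 ± 1.61 FPKM (limma adjusted p = 0.981). Hils1 measured 1.88 ± 0.215 and 1.06 ± 0.663 FPKM (limma adjusted p = 0.203). Over the alternatives the limma adjusted p of Hils1 lay between 0.0472 and 0.414.

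Of the 2 H2B members, the less abundant fell. Hist2h2be (ENSMUSG00000068854, chromosome 3, 96221119 to 96223738, plus strand) encodes an H2B protein and measured 4.33, 3.85 and 4.84 FPKM across the controls, against 1.47, 1.29 and 1.16 FPKM across the CKO hearts. All 3 CKO libraries lay far below the controls, on 55 to 69 reads against 177 to 253. Hist2h2be fell from 4.34 ± 0.499 to 1.31 ± 0.155 FPKM, to 0.301 times the control level (log2 fold change -1.21, SE 0.11, limma adjusted p = 0.00414). The call held under each alternative in which the gene was tested, with adjusted p between 0.00408 and 0.0278. On the recovered reads, without a pseudocount of 1 FPKM, limma voom gave a log2 fold change of -1.74.

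Hist1h2bc (ENSMUSG00000018102, chromosome 13, 23684199 to 23692908, plus strand) also encodes an H2B protein and was the leading H2B gene in every library. It measured 31.4, 35.8 and 27.5 FPKM across the controls, against 37.5, 32.0 and 39.96 FPKM across the CKO hearts. The groups overlapped, and the gene did not pass (log2 fold change 0.20, SE 0.13, limma adjusted p = 0.375). Hist2h2be made up 8.79% to 13.6% of the summed FPKM of 18 H2B genes in controls and 2.55% to 3.50% in CKO (exact two-sided permutation p = 0.1). The H2B sum itself was 35.7 to 43.8 FPKM across the controls, against 37.0 to 45.5 FPKM across the CKO hearts.

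Both H2B members start next to an H2A gene on the opposite strand that was nearly silent. Hist2h2ac lies 238 bases from the Hist2h2be start and held 0 to 2 reads per library, and Hist1h2ac lies 250 bases from the Hist1h2bc start and held 2 to 9 reads, against 613 to 837 for Hist1h2bc. In both genotypes the reads of these gene pairs were almost all on the H2B gene.

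**Figure D3:**
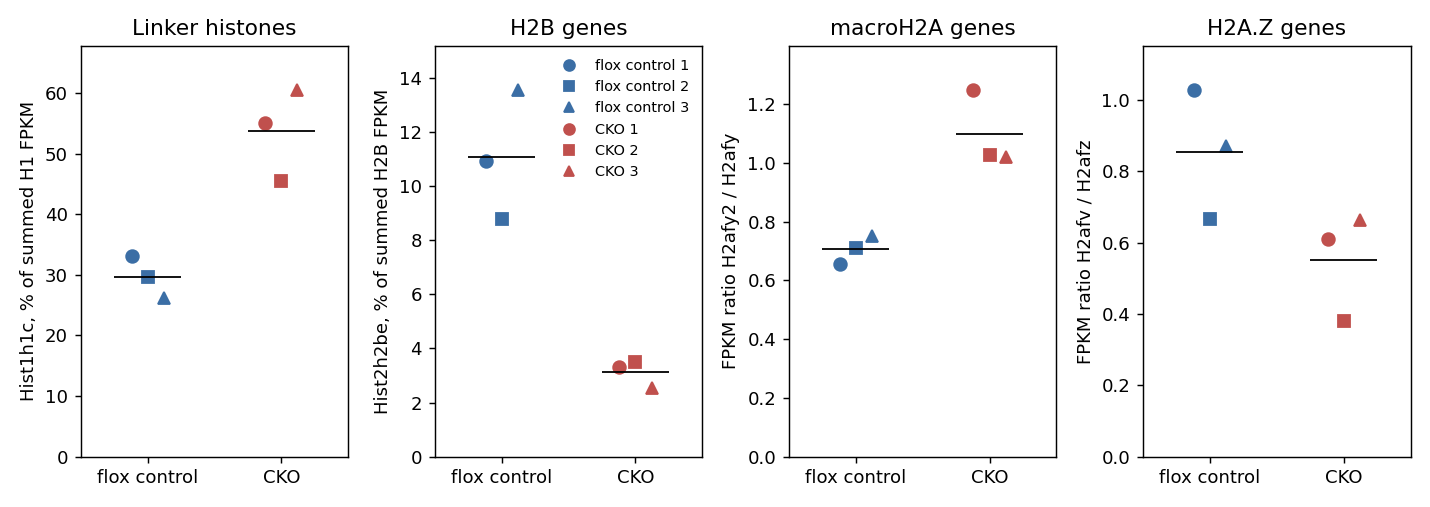
Balance within 4 groups of histone genes, 1 point per library, flox control in blue and CKO in red, with black lines at group means: Hist1h1c as a percentage of the summed H1 FPKM, Hist2h2be as a percentage of the summed H2B FPKM, and the FPKM ratios H2afy2 to H2afy and H2afv to H2afz. The groups do not overlap in any panel, but in the H2A.Z panel flox control 2 (0.666) and CKO 3 (0.665) almost touch. The 4 quantities were chosen after their values were seen. The ratio of H3f3b to H3f3a, not drawn, overlapped between groups.

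H2A.Z, which replaces H2A near gene starts, comes from H2afz and H2afv. H2afz (chromosome 3, 137864487 to 137866922, plus strand) measured 24.6, 38.8 and 28.8 FPKM across the controls, against 41.6, 36.7 and 25.4 FPKM across the CKO hearts. High and low libraries occurred in both groups, and the gene did not pass (log2 fold change 0.16, SE 0.23, limma adjusted p = 0.699). H2afv (chromosome 11, 6427229 to 6444443, minus strand) measured 25.3, 25.8 and 25.04 FPKM across the controls, against 25.4, 14.0 and 16.9 FPKM across the CKO hearts. CKO 1 was at the control level, and CKO 2 and 3 were lower than every control. H2afv did not pass with all libraries (log2 fold change -0.46, SE 0.20, limma adjusted p = 0.198) but passed without CKO 1 (log2 fold change -0.69, limma adjusted p = 0.0163). The library left out there is the one high in macrophage markers, whose part in the H2afv level was not tested. The ratio of H2afv to H2afz was 1.03, 0.666 and 0.871 in controls and 0.610, 0.382 and 0.665 in CKO (exact two-sided permutation p = 0.1). The level of this ratio rests on the deposited length of 1776 bases for H2afz, whose longest coding transcript has 1069.

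H2afz was highest in the libraries with the highest summed level of 40 S phase and division genes. That sum was 117, 197 and 116 FPKM across flox controls 1 to 3, against 179, 146 and 60.5 FPKM across CKO 1 to 3. The 3 libraries with the highest sums, flox control 2, CKO 1 and CKO 2, were also the 3 with the most H2afz. H2afx, an H2A variant gene that marks DNA breaks once its protein is phosphorylated, measured 12.4, 19.0 and 11.7 FPKM across the controls, against 14.4, 16.3 and 9.41 FPKM across the CKO hearts, with the same 3 libraries highest. The proliferation marker Mki67 was lowest in CKO 3, at 0.461 FPKM against 2.33 to 4.84 FPKM in the other libraries. These are descriptions over 6 libraries that also differ in sex-linked expression and in macrophage and neutrophil markers. The sum of 10 neutrophil markers was highest in the same 3 libraries. It was 44.2 FPKM in flox control 2, 57.8 in CKO 1 and 26.0 in CKO 2, against 8.39 to 16.1 FPKM in the others. Of the 36 S phase and division genes tested, none was called by limma, against 11.2% of all genes tested. Of the 36, 0 had an unadjusted p under 0.05, and limma voom on recovered reads also called 0. Their fold changes were negative in 31 and positive in 5, with a median of -0.22 against 0.01 over all genes. The sum of the 40 genes was lowest in CKO 3 (60.5 FPKM), while CKO 1 and CKO 2 lay above flox controls 1 and 3. The part of CKO 3 in these signs was not tested. Pcna, the replication clamp, measured 21.5 ± 4.86 and 17.7 ± 4.18 FPKM (limma adjusted p = 0.466), and Rrm2, a ribonucleotide reductase subunit gene, 8.10 ± 2.10 and 7.21 ± 6.68 FPKM (limma adjusted p = 0.652).

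**Figure D4:**
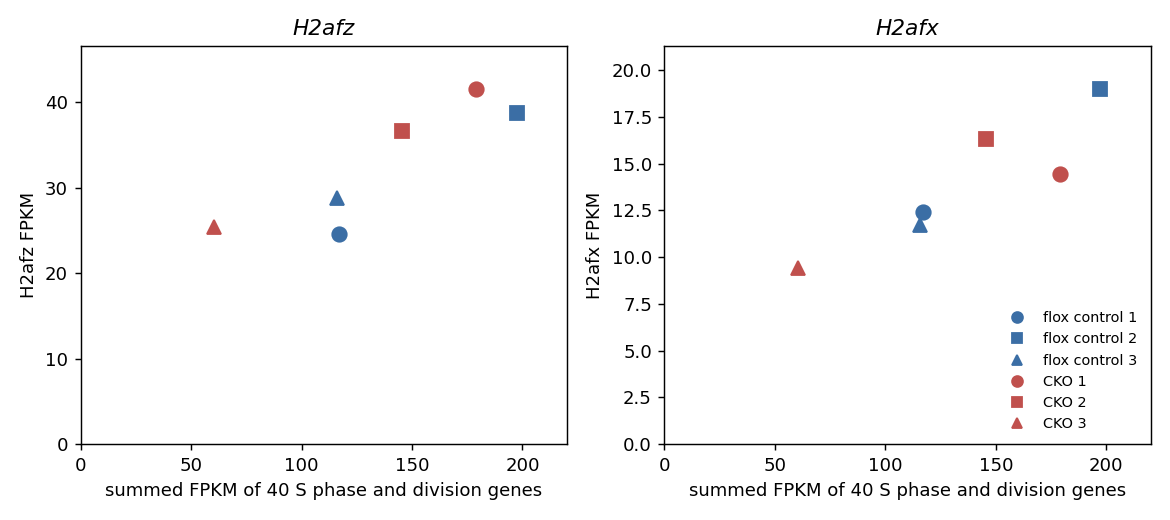
FPKM of H2afz (left) and H2afx (right) against the summed FPKM of 40 S phase and division genes, 1 point per library, flox control in blue and CKO in red. In both panels flox control 2, CKO 1 and CKO 2 have the 3 highest sums and the 3 highest levels, and CKO 3 has the lowest sum.

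MacroH2A carries a large non-histone domain and is linked to silent chromatin. H2afy (chromosome 13, 56073619 to 56136361, minus strand), which encodes macroH2A1, measured 5.93, 6.76 and 6.67 FPKM across the controls, against 6.61, 6.24 and 6.45 FPKM across the CKO hearts (log2 fold change -0.00216, SE 0.08, limma adjusted p = 0.989). The groups overlapped, and the sign turned under rescaling. An antisense gene, Gm47071, held 16 to 38 reads per library against 683 to 906 for H2afy. The paralog of H2afy, H2afy2, which encodes macroH2A2, measured 3.89, 4.79 and 5.00 FPKM across the controls, against 8.25, 6.40 and 6.57 FPKM across the CKO hearts. H2afy2 rose 1.55-fold (log2 fold change 0.54, SE 0.13, limma adjusted p = 0.0427), although the opposite-strand gene Aifm2, which overlaps it, held 673 to 849 reads per library against 143 to 322 for H2afy2, and reads of the overlap cannot be told apart without strand. That call was lost without any 1 library, the adjusted p then lying between 0.0647 (without CKO 1) and 0.134 (without flox control 1), without the filter (0.0944), after each of the 3 rescalings (0.0645 to 0.0853) and with voom (0.059). The ratio of H2afy2 to H2afy was 0.655, 0.709 and 0.750 in controls and 1.25, 1.03 and 1.02 in CKO (exact two-sided permutation p = 0.1). Only the difference of this ratio between groups can be read: its level depends on the length of 6809 bases that the table gives H2afy, whose coding transcripts have 1933 and 2046 bases, while H2afy2 has 2175.

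H3.3, the replication-independent H3 laid down in active genes, is encoded by H3f3a and H3f3b. H3f3a (chromosome 1, 180800832 to 180813943, minus strand) measured 38.0, 37.7 and 39.9 FPKM across the controls, against 40.4, 35.4 and 39.3 FPKM across the CKO hearts (log2 fold change -0.00828, SE 0.09, limma adjusted p = 0.966, with a sign that also turned under rescaling). H3f3b (chromosome 11, 116021912 to 116027962, minus strand) measured 56.3, 75.8 and 66.5 FPKM across the controls, against 65.8, 79.9 and 78.1 FPKM across the CKO hearts (log2 fold change 0.17, SE 0.14, limma adjusted p = 0.487). Levels of both genes overlapped between the groups, and H3f3b was above H3f3a in all 6 libraries, 1.48 to 2.26 times per length. That order rests on deposited lengths of 3504 bases for H3f3a and 2976 for H3f3b. Coding transcripts of H3f3a include forms of 888 and 2841 bases, and those of H3f3b have 1993 and 2514. The ratio of H3f3b to H3f3a also overlapped between the groups (exact two-sided permutation p = 0.5). Some uncertainty remains in H3f3a, since 3 rows annotated as H3.3 pseudogenes, H3f3a-ps1, H3f3a-ps2 and H3f3c, held 45 to 63, 4 to 14 and 11 to 27 reads per library, against 2254 to 2784 for H3f3a. The genes H3f3aos and Gm17275 on the opposite strand held 1 to 32 and 25 to 97 reads.

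By mean level over the 6 libraries the order of the members was H1f0 (80.3 FPKM), H3f3b (70.4), Hist1h1c (63.8), H3f3a (38.5), Hist1h2bc (34.0), H2afz (32.6), H2afv (22.1), H2afy (6.45) and Hist2h2be (2.82). That order pools groups that differ: in CKO Hist1h1c came first (87.3 FPKM), above H3f3b (74.6) and H1f0 (70.2), and in controls it came after both (40.4 FPKM, against 66.2 and 90.4). Like every order between genes, it also rests on the gene lengths in the table. Ranges over the libraries overlapped between each pair of neighbours down to H2afv, and H2afv, H2afy and Hist2h2be did not overlap one another. Within each of the families H1, H2B and H3 the members supplied most of the summed FPKM, at 95.8% to 98.3%, 87.4% to 90.6% and 86.9% to 90.0%. For H2A the members' share was 64.1% to 65.2% in controls and 52.3% to 59.9% in CKO, and H4 has no member. The leading H4 gene, Hist1h4h, whose model ends 46 bases past the stem-loop, measured 26.8 ± 3.07 and 30.2 ± 5.98 FPKM (limma adjusted p = 0.614). Hist1h4i measured 2.36 ± 0.613 and 3.39 ± 1.57 FPKM (limma adjusted p = 0.523).

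Of the 11 other histone genes tested, 3 rose and none fell by limma, against 5.69% called higher and 5.49% lower over all genes tested. The 11 include H3f3c, annotated as a processed pseudogene, which did not pass (limma adjusted p = 0.511). Of the 11, 0 had a lower value at an unadjusted p under 0.05, and voom called 1 higher and 0 lower. Their median log2 fold change was 0.05. Besides H2afy2, the 2 that rose were H2afj and Hist1h2bg. H2afj (chromosome 6, 136808244 to 136810074, plus strand), which encodes the H2A variant H2A.J, measured 10.4, 13.6 and 12.1 FPKM across the controls, against 23.8, 21.02 and 26.9 FPKM across the CKO hearts. The groups were well apart, and H2afj rose 1.99-fold (log2 fold change 0.94, SE 0.13, limma adjusted p = 0.0106), a call that held under every alternative tried (adjusted p between 0.00485 and 0.0488). Hist1h2bg, a clustered H2B gene with an annotated tail of 155 bases past the stem-loop printed above, rose from 0.811 ± 0.143 to 1.93 ± 0.446 FPKM (limma adjusted p = 0.0309) on only 8 to 10 reads in controls and 19 to 27 in CKO. Its call was lost without any flox control (adjusted p = 0.101, 0.0723 and 0.098 without 1, 2 and 3) or CKO 3 (0.0731), without the filter (0.0756) and with voom (0.0708). Cenpa, which encodes the H3 variant of centromeres, measured 10.01 ± 0.424 and 10.4 ± 0.400 FPKM (limma adjusted p = 0.716). Hist3h2a, a clustered H2A gene, measured 2.07 ± 0.667 and 1.205 ± 0.434 FPKM (limma adjusted p = 0.202).

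**Figure D5:**
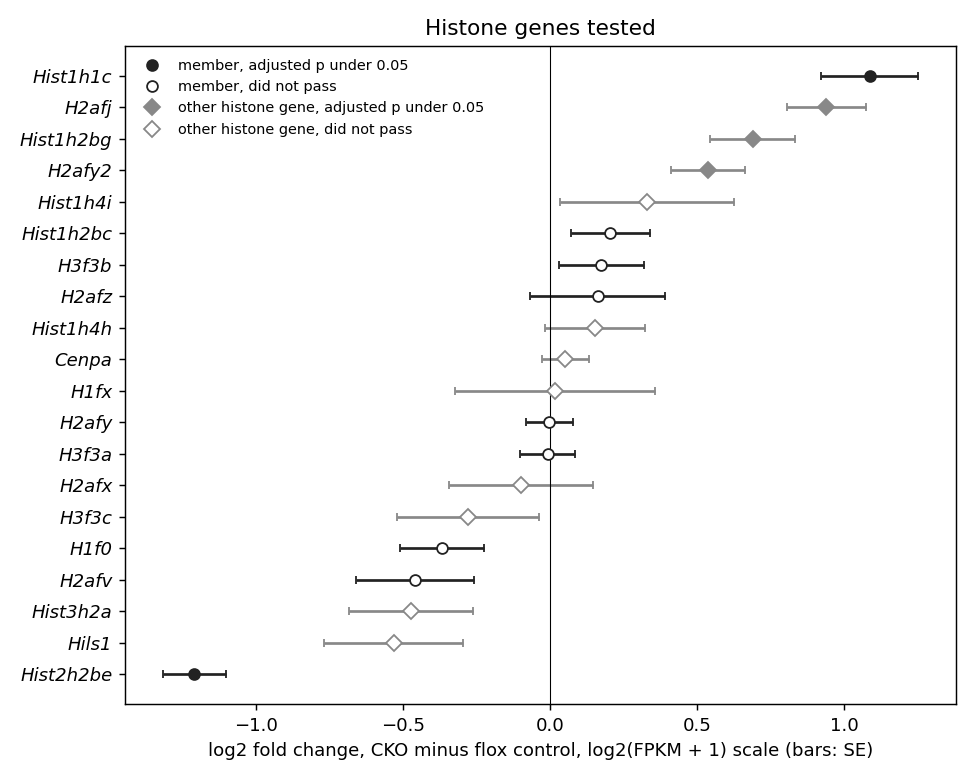
Log2 fold change (CKO minus flox control, log2(FPKM + 1) scale) with its standard error for the 9 members (circles) and the 11 other histone genes tested (diamonds); filled symbols have a limma adjusted p under 0.05. Hist1h1c (1.09) and Hist2h2be (-1.21) lie at the ends of the range. Among the diamonds, H3f3c is annotated as a processed pseudogene.

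The starts of Hist1h1c and H2afj, the tested histone genes with the largest increases on the log2(FPKM + 1) scale, are printed. They cover the 250 bases before the RefSeq start on GRCm38.p6. As a ratio of mean FPKM, Hist1h2bg rose more among the genes tested (2.39-fold), on few reads. Histone genes below the filter were not tested, and their ratios went both ways. Hist1h1d was 5.09-fold higher in CKO, on 6 to 10 reads in controls and 37 to 55 in CKO. Hist1h3e was at 0.04 times the control level, on 6 to 11 and 0 to 1 reads. RefSeq promoter sequences were found for 7 of the 9 members. Capitals mark CCAAT on either strand, AAACACA (the H1 box) on either strand and TATATA.
Hist1h1c, chr13:23738557-23738806, plus strand: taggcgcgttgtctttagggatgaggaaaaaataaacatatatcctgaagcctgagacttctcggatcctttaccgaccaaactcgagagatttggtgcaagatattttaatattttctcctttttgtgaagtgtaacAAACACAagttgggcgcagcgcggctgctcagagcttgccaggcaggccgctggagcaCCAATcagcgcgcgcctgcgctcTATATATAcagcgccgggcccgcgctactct
H2afj, chr6:136807998-136808247, plus strand: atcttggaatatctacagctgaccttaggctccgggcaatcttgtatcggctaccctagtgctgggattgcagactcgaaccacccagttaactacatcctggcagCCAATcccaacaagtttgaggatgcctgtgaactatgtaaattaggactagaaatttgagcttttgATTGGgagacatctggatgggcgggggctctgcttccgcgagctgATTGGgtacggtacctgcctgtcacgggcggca

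Hist1h1c holds the H1 box 112 bases, CCAAT 54 bases and TATATA 31 and 29 bases (overlapping) before its start. H2afj holds CCAAT letters at 144, 78 and 33 bases before its start and neither of the other motifs. Over 32851 RefSeq promoter windows of the same 250 bases, CCAAT occurred in 33.8%, AAACACA in 6.25% and TATATA in 5.25%, counting both strands. These matches are letters, not sites of binding.

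Genes that process histone messages and handle histone proteins were taken from lists drawn up for this description. Of 18 genes tested for 3′ end formation and turnover of histone mRNA, none was called by limma or voom. Over all genes tested, limma called 11.2%. On this list 2 genes were lower at an unadjusted p under 0.05, and the list median was -0.05. Slbp, which encodes the stem-loop binding protein, measured 3.44, 3.99 and 3.88 FPKM across the controls, against 2.88, 3.14 and 2.65 FPKM across the CKO hearts (limma adjusted p = 0.0915). Its groups did not overlap, as for 34.3% of all genes tested. Upf1, a helicase that takes part in histone mRNA decay, measured 19.2 ± 1.52 and 18.6 ± 0.869 FPKM (limma adjusted p = 0.821), and Srrt, which links capped RNA to its processing, 17.9 ± 0.908 and 15.9 ± 1.60 FPKM (0.355). Of 31 histone chaperone and exchange genes tested, none was called by limma or voom, and 1 was lower at an unadjusted p under 0.05, with a median of 0.03. Nap1l4, a nucleosome assembly protein gene, measured 56.3 ± 1.57 and 49.8 ± 2.30 FPKM (limma adjusted p = 0.266), and Rbbp7, a histone-binding subunit gene, 55.2 ± 2.10 and 57.5 ± 6.14 FPKM (0.803). Of 15 growth arrest genes tested, 1 rose and none fell: Cdkn1a, which encodes the cyclin-dependent kinase inhibitor p21, measured 18.8 ± 11.5 and 69.5 ± 22.6 FPKM (limma adjusted p = 0.0479). A share of 1 in 15 is near the 5.69% called higher over all genes. The Cdkn1a call was lost without flox control 1, flox control 3, CKO 2 or CKO 3, without the filter, with either smaller pseudocount and with either other variance setting (adjusted p up to 0.128). At an unadjusted p under 0.05, 2 growth arrest genes were higher and 0 lower. The share of all genes tested at that unadjusted threshold is not given here, so counts at it are not read as a change in any list.

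Markers of the heart's cell types also differed between libraries, and their part in the histone levels was not tested. The sum of 10 cardiomyocyte markers was 19166 to 23132 FPKM across the controls, against 15159 to 19902 FPKM across the CKO hearts, and 9 of the 10 had negative fold changes, with Tnni3 called lower. The sum of 10 endothelial markers was 382 to 392 FPKM across the controls, against 283 to 375 FPKM across the CKO hearts, with Tie1 called lower. Sums of 10 fibroblast markers (702 to 872 and 751 to 1019 FPKM, with Tcf21 called higher) and of 10 mural cell markers (456 to 813 and 405 to 563 FPKM, with Abcc9 called lower) overlapped, as did macrophage (154 to 304 and 126 to 897 FPKM), lymphocyte (3.71 to 4.20 and 2.24 to 8.67 FPKM), neutrophil (8.996 to 44.2 and 8.39 to 57.8 FPKM) and erythroid sums (745 to 1149 and 657 to 1311 FPKM). These calls were lost when certain libraries were left out: any but CKO 3 for Tnni3 (adjusted p over all alternatives up to 0.218), any 1 library for Tie1 (up to 0.176), flox control 1, flox control 2 or CKO 3 for Tcf21 (up to 0.0633), and flox control 1, flox control 3 or CKO 3 for Abcc9 (up to 0.0607). Tnni3 also lost its call without the filter, and Tie1 under each rescaling. The 9 macrophage markers tested all had positive fold changes, and none was called. The macrophage sum was 897 FPKM in CKO 1 but 188 and 126 FPKM in CKO 2 and CKO 3, within or below the control range. No marker was at 0 in all libraries except 1 of 10 neutrophil markers. Hist1h1c was 85.7 FPKM in CKO 1, the library highest in macrophage markers, and lay between the other CKO libraries there; its call and that of Hist2h2be held without CKO 1 and without CKO 3.

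Likeness of pattern was described as Pearson's r over the 6 libraries on log2(FPKM + 1), among all genes tested. For the mean standardized pattern of Hist1h1c, Hist2h2be and Hist1h2bc the 5 closest genes were Mrrf (r = 0.995), Gm11730 (0.986), Mrpl43 (0.980), Med30 (0.975) and Hmox2 (0.972). That mean joins genes that went opposite ways: Hist1h1c and Hist2h2be had r = -0.97 with each other, the lowest of all 36 pairs of members. Taken alone, a choice made after the values were seen, Hist1h1c was closest to Etv5 (r = 0.995), which measured 4.73 to 7.02 FPKM across the controls, against 14.3 to 22.9 FPKM across the CKO hearts. Hist2h2be was closest to Pcsk6 (r = 0.999) and Smarcd1 (r = 0.999), a chromatin remodelling subunit gene that measured 12.9 to 14.1 FPKM across the controls, against 7.61 to 8.08 FPKM across the CKO hearts.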

How the data were processed

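Poly-T selected mRNA of 6 mouse hearts (3 flox control, 3 CKO) was sequenced as paired reads of 150 bases, per the labels' protocols. The authors deposited 1 table of FPKM values per gene with gene lengths; HISAT2 2.0.5, featureCounts 1.5.0-p3 and GRCm38.p6 are named in the submitters' processing notes. FPKM times gene length gave whole reads (within 0.001) for 100% of values. Whether counting used strand is not given in the sources used here.

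limma 3.58.1 (variance trend; R 4.3.3) was run on log2(FPKM + 1) for genes averaging 1 FPKM or more, and p-values were adjusted by Benjamini-Hochberg over 12144 genes. The script was tested on simulated data. Members were named in full; other histone genes and list genes were named where called, or else the 4 (histone) or 2 (other lists) with the highest mean level. Other named genes (such as H1fx, Hils1, Hist3h2a, H3f3c, Hist1h1d, Hist1h3e, Slbp and Mki67) and the ratios were chosen after their values were seen. Members and lists were chosen with earlier results of these data known. Alternatives were pseudocount, filter, scaling, variance trend, replicate block, leaving out each library, and limma voom on recovered reads. Their use on H2afj, H2afy2 and Hist1h2bg was added after seeing the data. Transcript ends came from GENCODE M21 and promoters from RefSeq.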

Additional observations from a re-analysis of the deposited data

How the results depend on the processing

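Of 152 fold changes of members under alternatives, 139 kept their direction and side of the threshold, 1 lost its call (Hist1h1c without flox control 1), 1 gained one (H2afv without CKO 1) and 11 turned sign, all of H2afy and H3f3a. The log2 fold change of H2afy was 0.0478 rescaled to TPM, 0.0441 rescaled to the same sum and 0.00700 when that sum left out mitochondrial genes, and ran from -0.0536 to 0.0274 with 1 library left out. That of H3f3a was 0.0441, 0.0434 and 0.00186 under the same rescalings and ran from -0.0463 to 0.0473 with 1 library left out. Rescaling to the same sum shifted the median of all genes by 0.0438.

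Of the 9 members, 2 were called; with a filter of at least 5 FPKM the number was 1, since Hist2h2be was then not tested, and with 1 library left out it ran from 1 to 3. Over all genes, 1358 were called, against 798 without the filter (27031 genes tested), 315 (without flox control 1) to 1490 (without CKO 1) with 1 library left out, and 1504 with voom. Deviations of same-numbered libraries from their group means correlated at 0.139, 0.0597 and -0.00548, so the numbers are not treated as pairs. With the replicate block 715 genes and 2 members were called (Hist1h1c adjusted p = 0.047, Hist2h2be 0.0197), and the calls of H2afy2 (0.11) and Hist1h2bg (0.0662) were lost, as were those of Tnni3 and Tie1. Hist2h2be rests on 55 to 69 reads per CKO library, which limits its precision.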
